A study of Mus musculus with 9 samples.

Results

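Genes of calcium cycling between the sarcoplasmic reticulum and the cytosol of heart muscle cells, 10 in all, were followed across 9 mouse hearts. They were Atp2a2, Pln, Sln, Ryr2, Casq2, Trdn, Hrc, Jph2, Cacna1c and Slc8a1, taken as the rows of the deposited count table that carry these symbols, 10 of 55291 symbols. Each symbol had 1 row. The rule itself uses names and no measured value, although the 10 names were proposed with earlier results of these data known. The study asked what c-Myc in cardiac fibroblasts does in hearts under pressure overload, and RNA was sequenced from whole heart tissue in 3 groups of 3 hearts. KO-TAC hearts were c-Myc flox/flox; Tcf21 iCre, given tamoxifen at 45 mg/kg on 5 consecutive days to activate a MerCreMer recombinase, and had transverse aortic constriction (TAC), a band on the aorta that loads the left ventricle. Their sample titles give 12 weeks. TAC hearts were wild type (WT) with the same operation and the same 12 weeks. Control hearts were WT, labelled as control, and the design text names a sham operation as the comparator. The mice were males of 8 to 12 weeks at surgery. Tcf21 marks cardiac fibroblasts, so the deletion was aimed at fibroblasts, whereas the 10 genes act in muscle cells. The labels do not say whether the WT mice received tamoxifen or carried Cre, and no KO heart without TAC was analysed, so genotype, Cre and tamoxifen cannot be told apart.

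Each heartbeat begins when the L-type channel (Cacna1c) lets a little calcium into the cell, which opens the ryanodine receptor (Ryr2) of the sarcoplasmic reticulum, held opposite the channel by junctophilin (Jph2), and releases the stored calcium. The pump SERCA2 (Atp2a2) then returns calcium to the store under the brake of phospholamban (Pln) or, in atrial muscle, sarcolipin (Sln), while the sodium-calcium exchanger (Slc8a1) carries the rest out of the cell. Inside the store, calsequestrin (Casq2) and the histidine-rich protein (Hrc) bind calcium, and triadin (Trdn) links calsequestrin to the release channel. Reduced SERCA2 and slower calcium uptake are a well known feature of failing hearts.

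Libraries held 59702513 to 109162107 counts. Expression is given as CPM, counts scaled to a common effective library total. Summed CPM of 20 cardiomyocyte markers were 59787 to 87232 in KO-TAC hearts, 18818 to 101466 in TAC hearts and 84600 to 87930 in control hearts, so that the sampled tissue was heart muscle in every library, with a wide spread among TAC hearts. All 20 of these markers lay below the control mean in TAC replicate 3. Endothelial markers (10 genes) summed to 1024 to 1167 CPM in KO-TAC hearts, 979 to 2056 CPM in TAC hearts and 987 to 1032 CPM in control hearts. Fibroblast markers (10 genes) summed to 1838 to 2072 CPM in KO-TAC hearts, 1592 to 3340 CPM in TAC hearts and 1546 to 1755 CPM in control hearts. Both lists thus reached their highest sums in TAC hearts. Smooth muscle and pericyte markers (8 genes) summed to 792 to 1129 CPM in KO-TAC hearts, 555 to 1017 CPM in TAC hearts and 1166 to 1193 CPM in control hearts. The sum of every heart under TAC was below that of every control heart, but the list did not fall as a whole. Abcc9 averaged 230 CPM in KO-TAC, 165 CPM in TAC and 456 CPM in control hearts. In each group under TAC, 5 of the 8 genes differed upward from control hearts and 3 downward, with median log2 differences of 0.024 in KO-TAC and 0.072 in TAC hearts. Macrophage markers (8 genes) summed to 223 to 381 CPM in KO-TAC hearts, 197 to 419 CPM in TAC hearts and 214 to 232 CPM in control hearts. No gene of these 5 lists was at 0 in all hearts of a group, and their part in the results below was not tested. Myc itself, the targeted gene, was at 4.22, 1.87 and 4.75 CPM in KO-TAC hearts, 8.93, 6.22 and 14.2 CPM in TAC hearts and 2.14, 2.47 and 1.55 CPM in control hearts. These are whole-heart values, in which the Myc RNA of fibroblasts is mixed with that of every other cell.

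The promoters of 7 of the 10 genes are in the RefSeq table used here, as 10 windows of 300 bases, 250 before and 50 after a transcript start on GRCm38.p6. These windows were searched on both strands for motifs of factors that act in heart muscle or that relate to the deleted gene. The 3 windows with a match are printed. Capitals mark the match, read on the gene's strand, 5′ to 3′. The MEF2 motif is in the Casq2 window on the plus strand of chr3:102086165-102086464, 69 bases before the start. The GATA factor motif AGATAA is in the Pln window on the plus strand of chr10:53337436-53337735, there as its reverse complement, 183 bases before the start. It is also in the Slc8a1 window on the minus strand of chr17:81738338-81738637, 68 bases before the start.
Casq2: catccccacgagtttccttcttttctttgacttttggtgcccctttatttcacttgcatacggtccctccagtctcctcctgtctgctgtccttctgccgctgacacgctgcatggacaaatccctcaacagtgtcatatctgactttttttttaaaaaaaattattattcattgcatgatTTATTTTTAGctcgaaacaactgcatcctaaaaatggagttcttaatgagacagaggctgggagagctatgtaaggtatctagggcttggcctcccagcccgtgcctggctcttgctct
Pln: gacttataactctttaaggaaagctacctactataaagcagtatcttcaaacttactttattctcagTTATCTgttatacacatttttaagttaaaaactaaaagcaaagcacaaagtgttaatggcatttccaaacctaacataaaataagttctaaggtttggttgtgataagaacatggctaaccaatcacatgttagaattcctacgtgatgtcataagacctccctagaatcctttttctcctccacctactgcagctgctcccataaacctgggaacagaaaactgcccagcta
Slc8a1: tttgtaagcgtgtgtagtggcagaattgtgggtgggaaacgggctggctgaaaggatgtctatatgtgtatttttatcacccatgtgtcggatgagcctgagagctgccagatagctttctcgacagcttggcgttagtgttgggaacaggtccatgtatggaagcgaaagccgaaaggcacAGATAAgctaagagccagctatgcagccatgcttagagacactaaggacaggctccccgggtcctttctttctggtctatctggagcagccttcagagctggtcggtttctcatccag
The E-box CACGTG that Myc and its partner Max bind was in 0 of the 10 windows, against 7.15% of all 32851 promoter windows of the same length. AGATAA was in 2 of 10 windows against 11.2% of all, and MEF2 in 1 of 10 against 3.19%. CATTCC, a TEAD motif, was in 0 of 10 against 14.7%, and the CArG box of serum response factor in 0 of 10 against 1.63%. Letters of this kind say nothing of binding.

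By mean CPM, not corrected for length, the pump was the highest of the 10 genes in each group. Atp2a2 (chromosome 5, 122453513 to 122502225 on GRCm38, minus strand) was at 3706, 5742 and 9868 CPM in KO-TAC hearts, 2370.2, 12227 and 449 CPM in TAC hearts and 12688, 13447 and 12359 CPM in control hearts. Control hearts lay within a narrow band and every heart under TAC lay below it, with TAC replicate 2 just under the band and TAC replicate 3 at 3.50% of the control mean, 28.5-fold below. Pln (chromosome 10, 53337667 to 53345987, plus strand), the brake on the pump, was at 2460.25, 2998 and 4049.96 CPM in KO-TAC hearts, 1377, 4497 and 188 CPM in TAC hearts and 4892, 4942 and 4932 CPM in control hearts. The hearts fell in the same order as for the pump within both groups under TAC, again with every heart below control and TAC replicate 3 at 3.82% of the control mean. Reads of Cep85l and Gm47644, which overlap Pln on the other strand, came to 16484 and 64981 counts over all hearts against 2383827 for Pln.

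Sarcolipin was close to undetected. Sln (chromosome 9, 53850164 to 53854560, plus strand) had 44 counts in TAC replicate 1, or 0.585 CPM (exact Poisson 95% interval 0.425 to 0.785 CPM, for counting error only), and 0 counts in the other 8 hearts. The limit that a count of 0 allows, 3 counts, was 0.0221 to 0.0468 CPM depending on the library. Myl7, an atrial myosin light chain, also had few counts, 0 to 57 per library. A list of 10 atrial markers that includes Nppa, which loaded ventricles also express, summed to 363 to 1358 CPM in KO-TAC hearts, 460.3 to 1324 CPM in TAC hearts and 133 to 215 CPM in control hearts. Skeletal muscle markers (11 genes) summed to 6.21 to 10.6 CPM in KO-TAC hearts, 5.45 to 13.6 CPM in TAC hearts and 5.47 to 7.12 CPM in control hearts, with 2, 4 and 1 of them at 0 throughout the KO-TAC, the TAC and the control group. Sln did not pass the filter on low counts, so that 9 of the 10 genes were tested, and its presence in 1 heart has no replicate.

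**Figure D1:**
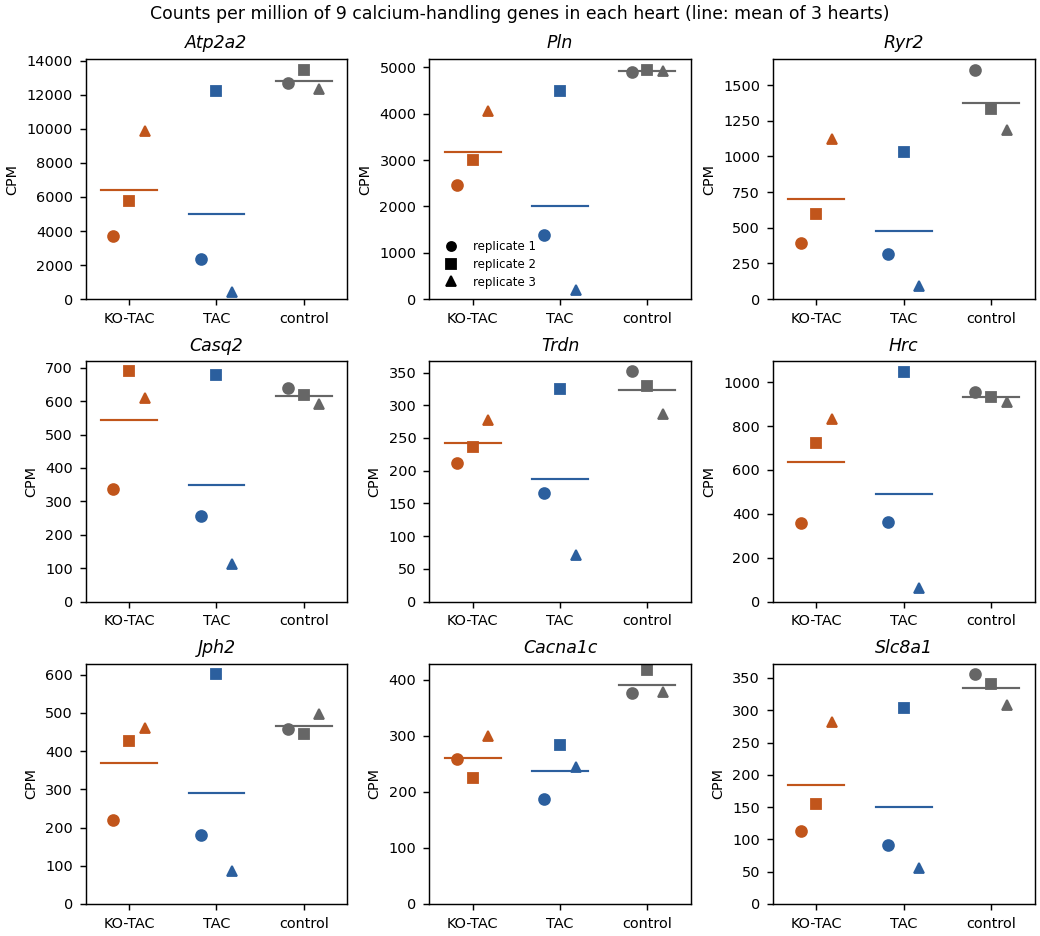
CPM of 9 of the 10 genes (linear axis) in each heart, with KO-TAC, TAC and control hearts side by side. Each point is a heart and the bar is the group mean. Control hearts lie close together, whereas TAC hearts are spread widely, from 449 to 12227 CPM for Atp2a2. Sln, with counts in 1 heart, is left out.

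The release complex, the channel with its luminal partners, came next. Ryr2 (chromosome 13, 11553102 to 12106945, minus strand) was at 396 CPM, 594 CPM and 1119 CPM in KO-TAC hearts, 315, 1032 and 89.3 CPM in TAC hearts and 1606, 1335 and 1184 CPM in control hearts. All 6 hearts under TAC lay below all 3 control hearts, KO-TAC replicate 3 and TAC replicate 2 by the least. Casq2 (chromosome 3, 102086415 to 102146514, plus strand), the main calcium store protein of the lumen, was at 336, 689.7 and 609 CPM in KO-TAC hearts, 257, 677 and 111 CPM in TAC hearts and 639.98, 618 and 590.2 CPM in control hearts. KO-TAC replicate 2 and TAC replicate 2 were above every control heart, so the groups overlapped. Trdn (chromosome 10, 33080554 to 33476709, plus strand), which anchors calsequestrin to the channel, was at 211, 236 and 278 CPM in KO-TAC hearts, 166, 324 and 70.5 CPM in TAC hearts and 353, 329.6 and 287 CPM in control hearts. KO-TAC hearts were all below control hearts, KO-TAC replicate 3 by the least, and TAC hearts overlapped control hearts through TAC replicate 2. The antisense gene D830005E20Rik had 3637 counts over all hearts against 179198 for Trdn. Hrc (chromosome 7, 45335290 to 45338974, plus strand), a luminal calcium-binding protein that also touches the pump, was at 359, 722 and 831 CPM in KO-TAC hearts, 362, 1045 and 60.6 CPM in TAC hearts and 954, 933 and 908 CPM in control hearts. TAC replicate 2 held the highest value of all 9 hearts and TAC replicate 3 the lowest.

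Jph2 (chromosome 2, 163336242 to 163397993, minus strand), which ties the surface membrane to the reticulum, was at 219 CPM, 427 CPM and 461 CPM in KO-TAC hearts, 179, 603 and 86.1 CPM in TAC hearts and 458, 444 and 496 CPM in control hearts. TAC replicate 2 was again the highest of the 9 hearts, and KO-TAC replicate 3 lay within the control range, so both groups under TAC overlapped control hearts. Slc8a1 (chromosome 17, 81373105 to 81738377, minus strand), the exchanger that removes calcium across the surface membrane, was at 113, 155 and 282 CPM in KO-TAC hearts, 91.2, 304 and 55.5 CPM in TAC hearts and 357, 340.0 and 309 CPM in control hearts. All 6 hearts under TAC were below the lowest control heart, TAC replicate 2 by a small margin. Cacna1c (chromosome 6, 118587240 to 119196418, minus strand), the pore of the L-type channel, was at 258, 225 and 300.03 CPM in KO-TAC hearts, 187, 283 and 244 CPM in TAC hearts and 376, 417 and 378 CPM in control hearts. It differed from the others in that TAC replicate 3 lay in the middle of its group, and all 6 hearts under TAC lay close together, below every control heart. Dcp1b, which overlaps it on the other strand, had 4936 counts over all hearts against 215516 for Cacna1c.

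By Pearson r, levels of 8 of the tested genes varied together across hearts, and Cacna1c less so. Over the 9 hearts, which share library scaling and tissue, the pairwise Pearson r of log2 CPM was 0.899 to 0.99 among the 8 genes without Cacna1c. It was 0.516 to 0.791 between Cacna1c and each of them. By rank this split did not hold. Spearman rho of Cacna1c ran from 0.25 with Casq2 to 0.9 with Pln, and was 0.883 with Atp2a2. For Casq2 with the rest of the 8, rho was only 0.55 (Pln) to 0.717 (Hrc). Within TAC replicate 3 the genes fell into tiers. Atp2a2, Pln, Hrc and Ryr2 were 28.5-fold, 26.2-fold, 15.4-fold and 15.4-fold below the control mean, whereas Slc8a1, Casq2, Jph2 and Trdn were 6.04-fold, 5.53-fold, 5.41-fold and 4.58-fold below it and Cacna1c 1.60-fold. When libraries were scaled by total count alone, Cacna1c was at 321, 226 and 278 CPM in KO-TAC hearts, 177, 243.5 and 353 CPM in TAC hearts and 321, 385 and 349 CPM in control hearts. On that scale TAC replicate 3 and, by a small margin, KO-TAC replicate 1 were within the control range, so that the places of both groups below control depend on the scaling for this gene. All 9 genes together took 1.003%, 1.19% and 1.65% of the counts in KO-TAC hearts, 0.504%, 1.80% and 0.196% in TAC hearts and 1.90%, 2.11% and 1.98% in control hearts.

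Levels were compared between genes per kilobase of annotated exon. In control hearts the order of mean CPM per kilobase was Atp2a2 at 2110.1, Pln at 1784, Hrc at 363, Casq2 at 225, Jph2 at 109.5, Ryr2 at 47.8, Trdn at 34.5, Cacna1c at 18.4 and Slc8a1 at 17.8. Only the last 2 neighbours, the channel pore and the exchanger, overlapped between hearts. In KO-TAC hearts Pln stood above Atp2a2, at 1149 and 1059 CPM per kilobase, but their ranges overlapped, as did those of Hrc and Casq2 at 248 and 199 CPM per kilobase. In TAC hearts the means ran from 825 CPM per kilobase for Atp2a2 and 732 CPM per kilobase for Pln to 7.99 CPM per kilobase for Slc8a1, and all neighbours among the 9 detected genes overlapped. Exon length is the union over all annotated transcripts of a gene.

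**Figure D2:**
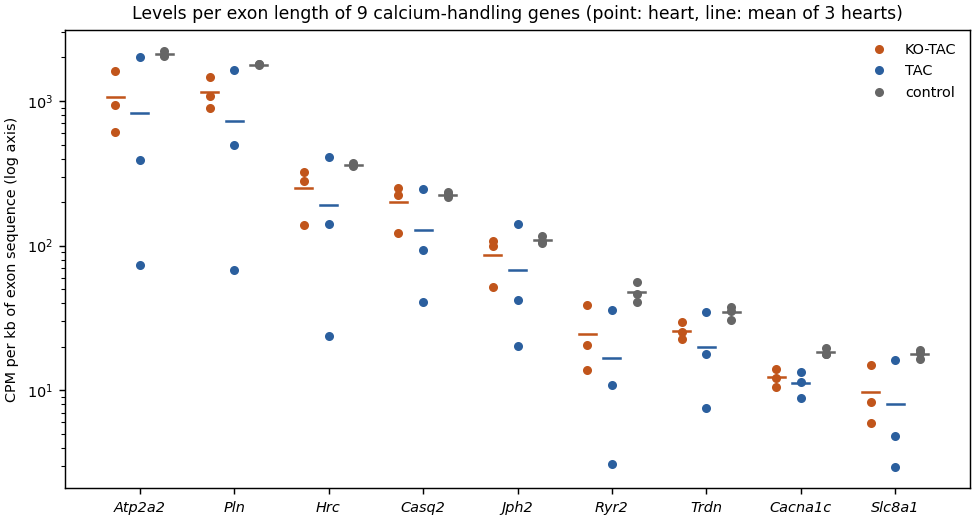
Mean CPM per kilobase of annotated exon for each gene (log axis), with points for single hearts, in KO-TAC, TAC and control hearts. The order of the genes is the same for the most abundant in TAC and control hearts, led by Atp2a2 at 825 and 2110.1, and Pln leads in KO-TAC hearts at 1149.

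Pressure overload in WT hearts was examined first. In TAC hearts all 9 tested genes had means below those of control hearts, with a median log2 difference of -0.93 against 0.03 over all 19051 genes tested, of which 48.5% were below 0. None passed Benjamini-Hochberg adjusted p under 0.05 in edgeR's quasi-likelihood test, and neither did any other gene (0%; the lowest adjusted p of all genes was 0.0829, and 4054 genes, 21.3%, had an unadjusted p under 0.05). Ryr2 differed most, by -1.52 (SE 0.75), with means of 479 ± 492 CPM in TAC hearts and 1375 ± 214 CPM in control hearts (SD, n = 3 each; edgeR adjusted p = 0.268). Atp2a2 differed by -1.36 (SE 0.95), with means of 5015 ± 6320 and 12831 ± 558 CPM in TAC and control hearts (edgeR adjusted p = 0.408). Pln differed by -1.28 (SE 0.84) and Slc8a1 by -1.16 (SE 0.59), with edgeR adjusted p of 0.379 and 0.28. The spread among TAC hearts was as large as these levels, and for Atp2a2, Ryr2 and Pln the SD in TAC hearts exceeded the mean.

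Cacna1c, with the smallest spread, had the lowest p. It averaged 238 ± 48.6 CPM in TAC hearts and 390.4 ± 23.0 CPM in control hearts (SD, n = 3 each), a log2 difference of -0.72 (SE 0.25, unadjusted p = 0.0188, adjusted p = 0.175 in edgeR). DESeq2 gave an adjusted p of 0.0256 for it, and it was the only one of the 9 that DESeq2 called, where 2.87% of all genes were called lower. It was also the only one with an unadjusted p under 0.05 and a lower level, as 8.08% of all genes had. Scaled by total count it differed by -0.45 (edgeR adjusted p = 0.363). The luminal and junctional genes Hrc, Casq2, Trdn and Jph2 differed by -0.93, -0.82, -0.79 and -0.69, with edgeR adjusted p of 0.33 to 0.51 and ranges that overlapped control hearts. Ranges lay apart for the other 5 genes, all lower in TAC hearts, where 14% of all genes lay apart in that direction. The edgeR calls changed with the TAC heart left out. Without TAC replicate 1 or 3 edgeR called none of the 9 (adjusted p 0.329 to 0.747 and 0.254 to 0.83). TAC replicate 2 was the TAC heart nearest control in these genes (median -0.07), so leaving it out widens the difference. Without TAC replicate 2, edgeR called all 9 lower in TAC hearts, where 14% of the genes tested were called lower. The log2 differences were then -0.87 for Cacna1c to -3.19 for Atp2a2, with edgeR adjusted p of 0.0117 to 0.0471. DESeq2 without that heart also called all 9 lower, as 18.3% of genes were, and limma-voom with quality weights did so on all 9 hearts, where 19.8% of genes were called lower.

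The effect of the fibroblast c-Myc deletion under load was examined by setting KO-TAC against TAC hearts. All 9 means were higher in KO-TAC hearts, with a median log2 difference of 0.37 against 0.01 over all genes, of which 49.2% were below 0. None passed in edgeR (0% of all genes passed; 1420 genes, 7.45%, had an unadjusted p under 0.05, 2.94% of all genes with a higher level, and none of the 9 did) or in DESeq2 (0.409% of all genes called higher). All 9 ranges overlapped, where 5.17% of all genes lay apart and higher. Pln and Casq2 differed most. Pln averaged 3169 ± 809 CPM in KO-TAC hearts and 2020.6 ± 2230 CPM in TAC hearts, a log2 difference of 0.65 (SE 0.83), and Casq2 averaged 545 ± 185 CPM in KO-TAC hearts and 348 ± 294 CPM in TAC hearts, a log2 difference of 0.65 (SE 0.57; SD, n = 3 each). Ryr2 differed by 0.56, Hrc by 0.38, Trdn by 0.37, Atp2a2 by 0.36, Jph2 by 0.35, Slc8a1 by 0.29 and Cacna1c by 0.13, and edgeR adjusted p over the 9 was 0.762 to 0.908. Pln, Casq2 and Ryr2 stayed higher in KO-TAC hearts whichever heart was left out, whereas the direction of the other 6 rested on single hearts. Without TAC replicate 3, edgeR gave -0.17 for Atp2a2, -0.10 for Slc8a1, -0.076 for Jph2, -0.011 for Trdn and -0.14 for Hrc. Without KO-TAC replicate 3 it gave -0.085 for Atp2a2 and -0.16 for Slc8a1, and without TAC replicate 1 it gave -0.011 for Cacna1c. Without TAC replicate 2 the median difference was 1.57 and edgeR again called none (adjusted p 0.0791 to 0.471), whereas DESeq2 called 8 of 9 higher, all but Cacna1c, where 10.6% of genes were called higher. Limma-voom called 1 higher on all hearts, Casq2 (1.23, adjusted p = 0.0434), where 3.3% of genes were. Except for Casq2 in KO-TAC replicate 2 and Cacna1c and Ryr2 in KO-TAC replicate 3, every KO-TAC value lay between the lowest and the highest TAC heart. This comparison shares its TAC hearts with that of TAC against control hearts.

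KO-TAC hearts were set against control hearts last. All 9 genes had lower means in KO-TAC hearts, with a median log2 difference of -0.58 against 0.04 over all genes, of which 46.2% were below 0. None passed in edgeR (0% of all genes; 1098 genes, 5.76%, had an unadjusted p under 0.05) or in DESeq2 (0.163% of all genes called lower). Atp2a2 averaged 6439 ± 3140 CPM in KO-TAC hearts and 12831 ± 558 CPM in control hearts, a log2 difference of -0.995 (SE 0.94). Ryr2 averaged 703 ± 374 and 1375 ± 214 CPM in KO-TAC and control hearts, a difference of -0.97 (SE 0.74), and Slc8a1 differed by -0.87, Pln by -0.64, Hrc by -0.55 and Trdn by -0.42. Cacna1c differed by -0.58 (SE 0.25), with the only unadjusted p under 0.05 of the 9 (0.0453; adjusted p 0.851 in edgeR), where 2.24% of all genes had one and were lower. Limma-voom called it lower (-0.68, adjusted p = 0.0336), the only one of the 9, where 2.8% of genes were called lower. The ranges of 7 genes lay apart, all lower in KO-TAC hearts, where 13.6% of all genes lay apart in that direction. Scaled by total count, Cacna1c in KO-TAC replicate 1 was within the control range. Casq2 and Jph2 overlapped control hearts and differed by -0.18 and -0.34, and Casq2 was at 0.076 without KO-TAC replicate 1 and at 0.014 with scaling by total count. Adjusted p in edgeR over the 9 was 0.851 to 0.965.

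**Figure D3:**
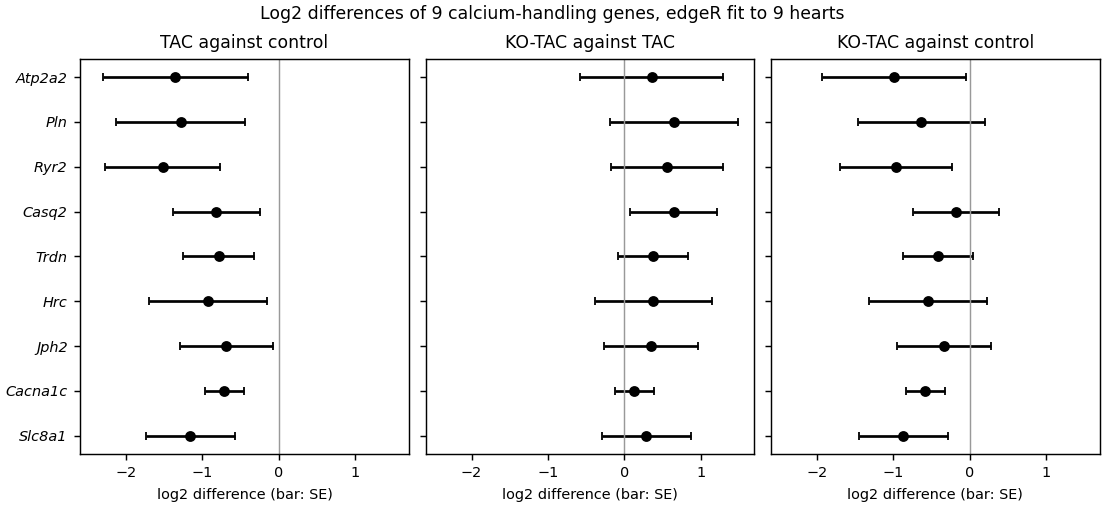
Log2 differences of the 9 tested genes with standard errors from edgeR, in the comparisons KO-TAC against TAC, KO-TAC against control and TAC against control. Every difference under TAC against control lies below 0, from -0.69 for Jph2 to -1.52 for Ryr2, and each of KO-TAC against TAC lies above 0, with standard errors that reach past 0 for all but Casq2.

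Other muscle transcripts of the same hearts gave a second scale, since in bulk RNA fewer muscle cells and less RNA per muscle cell cannot be told apart. Each gene was set against the median log2 CPM of the 20 cardiomyocyte markers in its own heart, which does not depend on library scaling. Measured this way, 8 genes were lower in every TAC heart than in every control heart, by -2.16 for Atp2a2, -1.94 for Pln, -1.87 for Ryr2, -1.43 for Hrc, -1.25 for Slc8a1, -0.91 for Casq2, -0.86 for Jph2 and -0.76 for Trdn. A two-sided exact permutation test gave p = 0.1 for each, the smallest that 3 hearts against 3 allow. Cacna1c overlapped, at -0.45 (exact p = 0.5). In KO-TAC hearts against control hearts all 9 lay apart, also each at exact p = 0.1, from -1.45 for Atp2a2 and -1.43 for Ryr2 to -0.58 for Casq2. The share of all genes that lie apart on this scale was not computed, so these counts have no background beside them. The marker median was above control in TAC replicate 2 (0.325) and in KO-TAC replicates 2 and 3 (0.201 and 0.094). Any gene set against it is lowered in those hearts. The choice of marker summary mattered for the smaller differences. With the mean of the 20 markers in place of their median, Jph2 (-0.44), Trdn (-0.34) and Cacna1c (-0.026) overlapped in TAC against control hearts, where Casq2 was at -0.49 and still apart. In KO-TAC against control hearts Casq2 then overlapped (-0.22, exact permutation p = 0.3), and the other 8 lay apart, Pln at -0.64, Hrc at -0.61, Cacna1c at -0.565, Trdn at -0.40 and Jph2 at -0.38. On the median scale, in KO-TAC hearts against TAC hearts all overlapped (Pln 0.93, exact p = 0.3; Atp2a2 0.71, exact p = 0.5; Slc8a1 -0.07).

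Heart by heart, the median of the 9 genes relative to control was -1.09, -0.72 and -0.24 in KO-TAC hearts and -1.38, -0.07 and -2.59 in TAC hearts, whereas that of the 20 markers was -0.31, 0.20 and 0.09 in KO-TAC hearts and -0.33, 0.33 and -2.06 in TAC hearts. The median of the calcium genes was thus below that of the markers in all 6 hearts under TAC, and TAC replicate 3 was the heart in which the markers were also far below control. Across the 9 hearts the median log2 CPM of the endothelial markers ran opposite to these genes, with r of -0.898 to -0.965 for the 8 and -0.747 for Cacna1c, a description of hearts that share scaling. With the median of the cardiomyocyte markers r was 0.523 to 0.821 for the 8 and -0.024 for Cacna1c. The part of cell composition in these values was not tested.

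**Figure D4:**
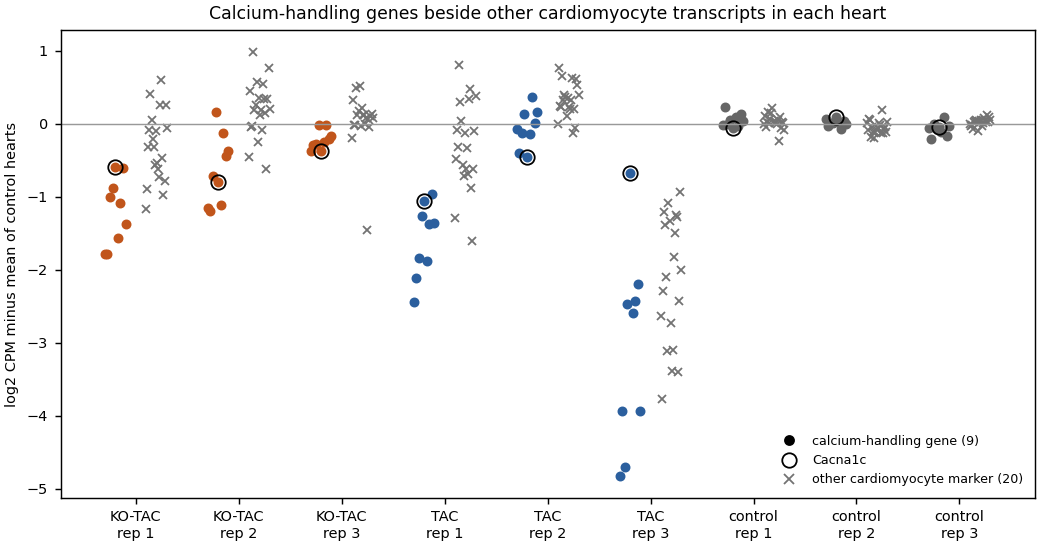
Log2 level relative to the control mean of the 9 calcium genes and of 20 cardiomyocyte markers, in each KO-TAC, TAC and control heart. The median of the markers is between -0.33 and 0.33 in every heart under TAC but TAC replicate 3 (-2.06). The median of the calcium genes is below it in all 6 hearts under TAC. Single genes range more widely, and in TAC replicate 3 Cacna1c (-0.68) lies above the highest marker (-0.93).

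Ratios within a heart set each gene beside the pump. Relative to control, Atp2a2 was the lowest of the tested genes in KO-TAC replicate 1 and TAC replicates 1 and 3. In KO-TAC replicate 3 it was lowest together with Cacna1c. Higher ratios to Atp2a2 thus partly restate its own low level, and the share of all genes that lie apart on such a ratio was not computed. Pln relative to Atp2a2, the brake beside the pump, was higher in KO-TAC hearts than in control hearts by 0.44 on the log2 scale with no overlap (exact permutation p = 0.1, the smallest possible), and higher by 0.22 in TAC hearts than in control hearts with overlap (exact p = 0.4). Relative to the pump, Casq2, Jph2 and Hrc were higher in every TAC heart than in every control heart, by 1.25, 1.30 and 0.73. They were also higher in every KO-TAC heart, by 0.87, 0.70 and 0.47, as was Trdn by 0.69 (each exact permutation p = 0.1). Ryr2 relative to the pump overlapped, with ratio differences from control hearts of 0.02 in KO-TAC hearts and 0.30 in TAC hearts (exact permutation p = 0.9 and 0.6). Slc8a1 relative to Atp2a2, the outward route beside the inward one, was at 0.14 in KO-TAC hearts and 0.91 in TAC hearts above control hearts, with overlap in both. No ratio lay apart between KO-TAC and TAC hearts (exact p 0.4 to 0.7).

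**Figure D5:**
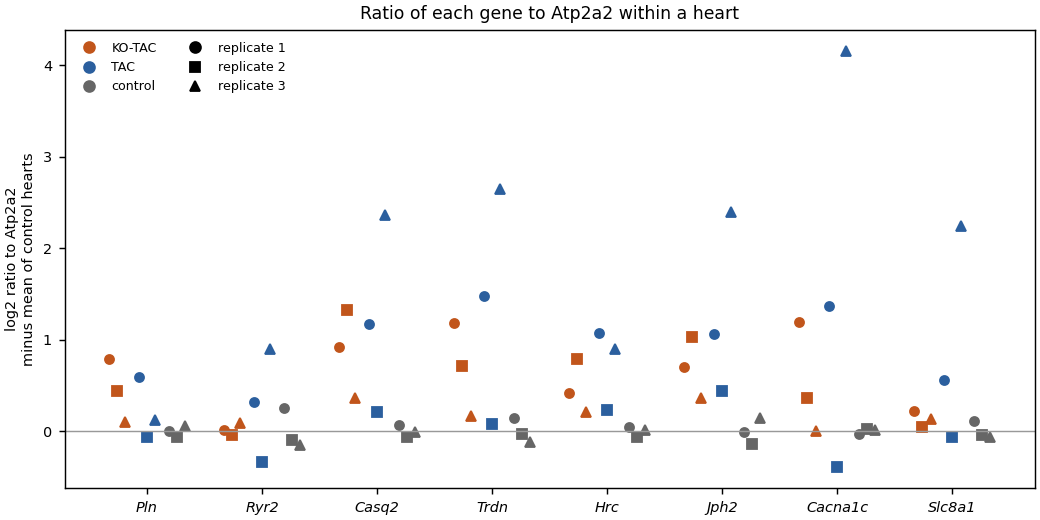
Log2 ratio of each gene to Atp2a2 in the same heart, relative to the control mean, for KO-TAC, TAC and control hearts. Cacna1c is highest in TAC replicate 3, 4.16 above the control mean, the heart in which Atp2a2 was 28.5-fold below the control mean.

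Other genes of calcium handling were read from 6 lists by role, 75 genes of which 74 were tested. None passed edgeR's adjusted p under 0.05 in any of the 3 comparisons (0% of all genes in each). In TAC against control hearts 27 differed upward and 47 downward, with a median of -0.32, where 48.5% of all genes differed downward. In edgeR 13 had an unadjusted p under 0.05, 7 of them higher and 6 lower, where 13.2% and 8.08% of all genes were. The kinases, phosphatases and calcium sensors accounted for 19 of the 47 downward, with a median of -0.58 over 22 genes. In KO-TAC against TAC hearts 47 differed upward and 27 downward (median 0.14), where 49.2% of all genes differed downward. In KO-TAC against control hearts 31 differed upward and 43 downward (median -0.06), where 46.2% of all genes differed downward. Other isoforms of the pump and the release channel were at low levels: Atp2a1 and Ryr1, the skeletal muscle forms, reached 1.92 CPM at most, and Atp2a3, the form of endothelium and blood cells, was at 13.2 to 25.6 CPM.

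The most abundant genes of each role followed the same hearts to differing degrees. Srl, a calcium-binding protein of the lumen, averaged 562 ± 203 CPM in KO-TAC hearts, 383 ± 407 CPM in TAC hearts and 759 ± 30.3 CPM in control hearts. Cacna2d1, the auxiliary subunit of the L-type channel, differed from control hearts by -0.68 in KO-TAC and -0.91 in TAC hearts (log2). Cmya5 differed by -0.51 in KO-TAC and -1.07 in TAC hearts, and Ppp1r3a, a glycogen-targeting phosphatase subunit, by -0.87 in KO-TAC and -0.79 in TAC hearts. Prkar1a, a regulatory subunit of protein kinase A, differed by -0.094 in KO-TAC and -0.59 in TAC hearts, and Ppp1cb, a phosphatase catalytic subunit, by -0.30 in KO-TAC and -0.62 in TAC hearts. The mitochondrial calcium genes Letm1 and Micu2 differed by -0.065 and 0.04 in KO-TAC hearts and by -0.58 and -0.44 in TAC hearts. Rrad, a small GTPase that restrains the L-type channel, averaged 152 ± 66.7 CPM in KO-TAC hearts, 87.2 ± 34.2 CPM in TAC hearts and 127 ± 7.14 CPM in control hearts. S100a1, a calcium sensor that favours pump and release channel activity, had higher means in both groups under TAC, at 411 ± 46.5 CPM in KO-TAC hearts, 346 ± 156 CPM in TAC hearts and 279.9 ± 15.2 CPM in control hearts (SD, n = 3 each), though TAC replicate 3 was at 176 CPM.

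Of 12458 genes searched, those whose log2 CPM followed the mean of the 9 calcium genes most closely over the 9 hearts were Msi2 and Adra1a (r = 0.999), and Txlnb, Kcnd2 and Pnpla8 (r = 0.998). Adra1a, the alpha-1A adrenergic receptor, was at 4.17, 7.85 and 13.5 CPM in KO-TAC hearts, 1.99, 18.8 and 0.370 CPM in TAC hearts and 25.02, 24.9 and 19.0 CPM in control hearts. The genes most like Cacna1c were Mllt6 (r = 0.976), Man2a2 (0.97), Kcnj2 and Ap5b1 (0.968) and Hp1bp3 (0.965). Kcnj2 encodes an inward rectifier potassium channel of the resting membrane.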

How the data were processed

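Per the labels' protocols, heart RNA came from Trizol extraction, and a strand-keeping NEBNext Ultra II kit gave the libraries. The authors deposited raw counts per gene symbol, whole numbers with no normalization that the values show. The submitters' processing notes name HISAT2 2.2.1 and StringTie 2.2.1 beside Trim Galore 0.6.10, DESeq2 1.42.0 and SAMtools 1.15, and the builds GRCm38 and mm10. No source used here gives the counting tool, the strand setting or the multi-mapping rule, so counts of genes that overlap Pln, Cacna1c or Trdn may be shared with them. The table had 55401 rows for 55291 symbols.

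All 9 libraries entered 1 edgeR 4.0.16 fit (glmQLFit, glmQLFTest, R 4.3.3) with TMM factors (0.853 to 1.45), a filterByExpr minimum count of 10 and group as the only term. Tests were two-sided, with Benjamini-Hochberg adjusted p under 0.05 over 19051 genes. SE is the log2 difference over the root of the F statistic. CPM used TMM-scaled library sizes, with a prior count of 2 on log2 plots and within-heart values. The members, lists and motifs were chosen with earlier results of these data known; no measured value is part of the members' rule. Genes named beside the members were, per role, those called or else the 2 of highest CPM, and the 5 most correlated with the members' mean. Some genes that this rule names are not reported here. A list most like Sln was not made because Sln was at 0 in 8 of 9 hearts; genes like Cacna1c were named instead, a choice made after its values were seen. Alternatives were DESeq2 1.42.0, limma-voom (limma 3.58.1), other scalings and filters, separate fits, a replicate block and leaving out each heart. Chosen after seeing the data, DESeq2 was also rerun without each TAC heart. No label ties a heart to its own mouse: the p-values rest on sample-to-sample spread, which may be technical. Tests were checked on simulated data in which every group had the same spread, so the check does not cover the wider spread of TAC hearts. The planted changes were also larger than the differences of the 9 genes in the main fit. Positions are from GENCODE's GRCm38 annotation and promoters from RefSeq on GRCm38.p6.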

Additional observations from a re-analysis of the deposited data

How the results depend on the processing

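Under the alternatives tried, the log2 differences of the 9 tested genes kept their direction except as follows. In KO-TAC against TAC hearts, leaving out 1 heart in edgeR gave -0.17 to 2.19 for Atp2a2, -0.16 to 1.33 for Slc8a1, -0.011 to 0.28 for Cacna1c, -0.076 to 1.48 for Jph2, -0.011 to 1.04 for Trdn and -0.14 to 1.60 for Hrc, with the highest of each without TAC replicate 2. DESeq2 gave -0.04 for Cacna1c without TAC replicate 1, and -0.18, -0.11, -0.085, -0.02 and -0.14 for Atp2a2, Slc8a1, Jph2, Trdn and Hrc without TAC replicate 3. In KO-TAC against control hearts, Casq2 was at 0.014 with scaling by library size alone, 0.015 with voom and -0.39 to 0.076 with 1 heart left out. Library size alone moved the median of all genes to 0.29 in TAC and 0.28 in KO-TAC hearts against control hearts.

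Counts of calls moved most. In TAC against control hearts edgeR called 0 genes, DESeq2 1626 and voom 7230. Leaving out 1 heart gave 0 to 5477, and DESeq2 without TAC replicates 1, 2 and 3 gave 1208, 7134 and 759. In KO-TAC against TAC hearts DESeq2 called 195 and voom 996, leaving out 1 heart gave 0 to 13, and DESeq2 without those TAC hearts gave 371, 3706 and 152. In KO-TAC against control hearts DESeq2 called 89, voom 991, no filter 2 and the separate 2-group fit 30, leaving out 1 heart gave 0 to 4, and DESeq2 without those TAC hearts gave 94, 364 and 320. Of the 9 genes, TAC against control hearts had 1 called by DESeq2, 9 by voom, 0 to 9 with 1 heart left out, and 0, 9 and 1 by DESeq2 without TAC replicates 1, 2 and 3. In KO-TAC against TAC hearts voom called 1 (Casq2, 1.23, adjusted p = 0.0434), and DESeq2 without TAC replicate 2 called 8. In KO-TAC against control hearts voom called 1 (Cacna1c, -0.68, adjusted p = 0.0336). The cause was not tested.

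By the replicate numbers of the titles, same-numbered hearts did not deviate together (r from -0.255 to 0.124). The deposited column names number TAC hearts otherwise, as TACcontrol2 to TACcontrol4. Matched by those names, r was 0.327 for KO-TAC replicate 3 with TAC replicate 2. It was -0.008 for KO-TAC replicate 2 with TAC replicate 1, and -0.007 and -0.001 for TAC replicates 1 and 2 with control replicates 2 and 3. Whether the column names pair hearts was not tested further. With a block for the replicate numbers of the titles, the differences were -1.89 to -0.73 in TAC against control and 0.15 to 1.10 in KO-TAC against TAC hearts. They were -0.99 to -0.24 in KO-TAC against control hearts, and the block left 0 genes called in each. With the mean of the markers as the scale, 6 levels relative to the markers moved by more than 1 SD, to -0.49 for Casq2 and -0.34 for Trdn in TAC against control hearts and to -0.64 for Pln, -0.22 for Casq2, -0.565 for Cacna1c and -0.40 for Trdn in KO-TAC against control hearts, and none turned. Sln, at 0 counts in 8 hearts, was the only one of these genes below the filter on low counts. Groups held 3 hearts each, with a wide spread among TAC hearts. What limited the calls of the other genes was not tested.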

Other observations

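Genes named here lie outside the rule for named genes and were chosen after their values were seen. Cacna1h, the pore of a T-type calcium channel, was at 3.56, 2.21 and 6.87 CPM in KO-TAC hearts, 4.55, 4.65 and 5.73 CPM in TAC hearts and 10.5, 20.6 and 13.1 CPM in control hearts. All 6 hearts under TAC were below all 3 control hearts, and TAC replicate 3 did not stand apart, as with Cacna1c. The log2 difference was -1.81 in KO-TAC hearts and -1.57 in TAC hearts from control hearts (edgeR adjusted p = 0.688 and 0.136, DESeq2 adjusted p = 0.0112 and 0.0114). Rcan1, an inhibitor and transcriptional target of calcineurin, was at 63.1, 117 and 156 CPM in KO-TAC hearts, 81.4, 195 and 119 CPM in TAC hearts and 59.5, 43.7 and 60.1 CPM in control hearts. Every heart under TAC was above every control heart, and TAC hearts differed from control hearts by 1.28 (edgeR adjusted p = 0.152, DESeq2 adjusted p = 0.0315).

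Bin1, which shapes the T-tubule membrane, was at 15.9, 17.5 and 9.97 CPM in KO-TAC hearts, 18.3, 9.0001 and 25.4 CPM in TAC hearts and 8.53, 6.94 and 8.12 CPM in control hearts, again with no overlap. Jph1, a junctophilin of skeletal muscle that is also counted in heart, was at 9.25, 12.3 and 20.5 CPM in KO-TAC hearts, 6.75, 20.3 and 2.78 CPM in TAC hearts and 23.1, 27.9 and 24.9 CPM in control hearts, the order seen for Jph2 and the pump within the KO-TAC and within the TAC group. Strit1, a small peptide that relieves Pln's brake on the pump in mice, was at 1.99, 8.85 and 8.90 CPM in KO-TAC hearts, 2.58, 2.17 and 0.116 CPM in TAC hearts and 2.35, 2.44 and 1.59 CPM in control hearts. The higher values were in KO-TAC replicates 2 and 3, and KO-TAC hearts differed from TAC hearts by 2.02 (edgeR adjusted p = 0.668).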
